A study of Homo sapiens with 8 samples.

Results

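The aminoacyl-tRNA synthetases were examined as a family of 35 listed genes, 19 for the cytosolic enzymes and 16 for the mitochondrial ones. Members were all array probes annotated to these symbols that were detected, with a detection p-value under 0.05 against the negative control probes, on at least 2 of 8 arrays. The arrays carried 37 probes for 34 of the 35 genes, and 35 probes of 33 genes met the rule, out of 14574 tested probes and 24526 probes in all. All 19 cytosolic genes were measured by 21 probes, and 14 of the 16 mitochondrial genes by 14 probes. The EARS2 probe is annotated to a non-coding transcript, so which EARS2 transcript it measures is uncertain. YARS2 had no probe, the WARS2 probe was detected on 1 array, and a second IARS1 probe (ILMN_1801639) was detected on 0 arrays.

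Each synthetase joins an amino acid to its matching tRNA, the step that fixes the meaning of a codon before the ribosome reads it. Nuclear genes encode both sets: the cytosolic enzymes serve the ribosomes that make most cell protein, and a largely separate set is imported into mitochondria to translate the few proteins encoded there. Several cytosolic synthetase genes are known targets of ATF4, the transcription factor of the integrated stress response, which cells activate when amino acids run short or uncharged tRNA accumulates.

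The cells were HCT116, an established human colon cancer line, with and without p53 (p53+/+ and p53-/-). Each genotype was left untreated or given P2, a small molecule compound, at 25 µM, which made 4 groups of 2 arrays of total RNA. The labels name no solvent control and no time of exposure, give no clone for the p53-/- line, and do not say that replicates were separate cultures, so p-values measure only the spread between these samples, which may be technical. The extraction note speaks of frozen tissue, while every sample is labelled as a cell line. All 8 arrays carried the same HCT116 background, and in bulk RNA such as this fewer cells of a kind and less RNA per cell cannot be told apart.

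Median raw intensity ran from 52.2 to 69.1 over the arrays, with 12775 to 13998 probes detected. Of 8 epithelial markers, 7 were detected on all 8 arrays and 8 on at least 2, while 0 of the 4 leukocyte markers on the array were detected on 2 or more. Among the other markers, 1 of 5 fibroblast (COL1A1), 1 of 3 endothelial (PECAM1) and 1 of 2 erythroid markers (HBA2) were detected on all 8 arrays, while COL1A2, COL3A1, CDH5 and HBB were detected on 0. With P2, 5 of 8 epithelial markers rose in p53-/- and 2 of 8 in p53+/+ cells, where 10.4% and 5.82% of all genes, 1 probe each, were called higher. HBA2 fell in both genotypes, with values of -0.79 and -0.99, and COL1A1 fell in p53-/- cells (-0.49). Over all genes 14.5% and 6.85% were called lower. The marker calls were not repeated with an array left out. The part of these shifts in the synthetase values was not tested. The gene targeted in the p53-/- line is not analysed here. The brighter probe of CDKN1A, a cell cycle inhibitor and p53 target, did not separate the genotypes in untreated cells, at 10.06 and 10.07 in p53-/- and 9.91 and 10.06 in p53+/+ cells on the normalized log2 scale (adjusted p = 0.735). Replicate 1 of the untreated p53-/- cells stood apart on 215 probes that were at least 1 log2 unit lower there than on replicate 2, against 0 to 6 such probes in the other groups. No synthetase probe was among the 215, and the median absolute gap between replicates was 0.11, 0.13, 0.093 and 0.098 for the member probes of the 4 groups.

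Promoter sequence was examined first, because cytosolic synthetase genes are known for a shared element. RefSeq promoters (GRCh38.p14, 250 bases before to 50 after a start) were found for 30 of the 35 members, as 39 promoters. LARS1, VARS1, YARS1, AARS2 and VARS2 had no entry. The letters TGATGNAA, the core of the C/EBP-ATF response element (CARE) through which ATF4 binds, were searched on both strands. They stood in 8 of the 39 member promoters (20.5%), against 3.62% of all 35116 promoters of the same length. The matches fell in 7 of 16 cytosolic and 1 of 14 mitochondrial genes. The stretches around each match are shown, since they mark the members that could be set against the others for this element. Each is 30 bases read along the gene's own strand, and capitals mark the motif on either strand.
TARS1 (chr5:33440956-33440985, + strand): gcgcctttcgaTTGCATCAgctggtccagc
GARS1 (chr7:30594834-30594863, + strand): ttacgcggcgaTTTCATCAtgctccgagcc
IARS1 (chr9:92293692-92293721, - strand): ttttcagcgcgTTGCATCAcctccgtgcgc
CARS1 (chr11:3057407-3057436, - strand): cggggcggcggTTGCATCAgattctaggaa
MARS1 (chr12:57488053-57488082, + strand): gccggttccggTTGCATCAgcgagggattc
AARS1 (chr16:70289675-70289704, - strand): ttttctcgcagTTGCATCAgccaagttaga
NARS1 (chr18:57621804-57621833, - strand): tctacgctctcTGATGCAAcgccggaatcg
YARS2 (chr12:32756076-32756105, - strand): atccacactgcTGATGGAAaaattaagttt
In 6 of these 8 stretches the motif letters were TTGCATCA or its reverse complement TGATGCAA, and GARS1 and YARS2 differed from them. The E-box CACGTG was found in 12.8% of member promoters (CARS2, EARS2, IARS1 and MARS2) against 7.26% of all. It did not overlap a CARE match. The member share stands for 5 promoters of 4 genes and counts 1 EARS2 match more than once, because the EARS2 promoters overlap. A match describes letters in this window and is not a measured binding site.

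The second sequence shown is the stretch between HARS1 and HARS2, the cytosolic and mitochondrial histidyl-tRNA synthetase genes, because HARS2 was the member with the most calls. Their RefSeq starts lie 85 bases apart and the genes run away from each other, HARS1 on the - strand and HARS2 on the + strand. The stretch from start to start is chr5:140691370-140691455 (GRCh38.p14, + strand).
HARS1 to HARS2: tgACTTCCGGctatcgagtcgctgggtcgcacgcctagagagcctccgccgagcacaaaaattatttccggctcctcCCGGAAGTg
Capitals mark the ETS letters CCGGAAGT on either strand, a motif added to the search after the sequence was seen. These letters stood in 23.1% of member promoters, for 8 genes, against 4.14% of all promoters. The member share includes HARS1 and HARS2, whose sequence prompted the search and whose windows hold the same 2 matches. It also counts 1 EARS2 match in 2 overlapping promoters, so the share is not independent of how the motif was chosen. The HARS1 to HARS2 stretch held 2 ETS matches, 0 CARE matches and 0 E-boxes.

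Few synthetase probes passed the test for P2, and at an adjusted p under 0.05 those that did were all of mitochondrial enzymes. The cytosolic HARS1 lay close to that threshold in p53-/- cells (change -0.46, adjusted p = 0.0521 in the limma fit). HARS2 and LARS2 changed by -0.47 and -0.50 there, so the split between the classes depends on the threshold. In p53-/- cells 2 of 35 member probes fell, HARS2 and LARS2, and 0 rose; among all tested probes 25.4% were called in this comparison, 13.6% lower and 11.8% higher. In p53+/+ cells 1 of 35 fell, HARS2, and 0 rose, where 12% of all tested probes were called, 6.29% lower and 5.71% higher. Averaged over both genotypes, an estimate that uses the same arrays, HARS2 and TARS2 fell and SARS2 rose, 3 of 35, where 31.9% of all probes were called, 17.2% lower and 14.7% higher. Calls are from limma with Benjamini-Hochberg adjustment over all 14574 probes, at an adjusted p under 0.05. At an unadjusted p under 0.05 the members' share was also below that of all probes, with 7 of 35 (20.0%) against 39% in p53-/- cells and 5 of 35 (14.3%) against 28% in p53+/+ cells. No p-value is attached to the list itself, and these shares describe it beside all probes.

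Most of the 19 cytosolic genes had small fitted changes in both genotypes. Where 24.9% of all genes, 1 probe each, were called in p53-/- and 12.7% in p53+/+ cells, 0 of these 19 passed the test. With the brightest tested probe standing for each gene, their median log2 change with P2 was -0.04 in p53-/- cells and 0.01 in p53+/+ cells, against -0.06 and -0.02 over all 10932 tested genes. The median size of change, without its sign, was 0.092 and 0.066 for these genes and 0.22 and 0.18 for all genes. In p53-/- cells the changes ran from -0.46 (HARS1) to 0.26 (MARS1, the methionyl enzyme), and in p53+/+ cells from -0.20 (RARS1, the arginyl enzyme) to 0.33 (VARS1, the valyl enzyme). The 95% interval of the change lay wholly within 1.5-fold either way for 17 of 19 cytosolic genes (89.5%) in p53-/- cells and for 19 of 19 in p53+/+ cells, against 60.2% and 67.9% of all genes. The cytosolic probes were brighter, with means per array from 9.92 to 10.02 against 7.61 to 7.65 over all tested genes. Their median interval half-width was 0.25 log2 units against 0.28 over all genes. The part of brightness in the smaller changes was not tested.

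At this threshold the 14 measured mitochondrial genes held all the member calls, in both directions. Their median log2 change was -0.11 in p53-/- and 0.04 in p53+/+ cells, and the median size of change was 0.16 and 0.18. The median half-width of the 95% interval was 0.25 log2 units for the cytosolic and 0.28 for the mitochondrial genes, and the classes were not tested against each other. Fitted changes ran from -0.50 (LARS2) to 0.35 (PARS2, the prolyl enzyme) in p53-/- cells and from -0.43 (TARS2) to 0.36 (SARS2) in p53+/+ cells. A fitted value over 1.25-fold either way was seen for 6 of 14 mitochondrial genes (42.9%) and 1 of 19 cytosolic genes in p53-/- cells, against 34.4% of all genes. In p53+/+ cells it was seen for 3 of 14 (21.4%) and 1 of 19, against 25.3% of all genes. No member of either class had a fitted value over 1.5-fold in either genotype, where 13% and 7.2% of all genes had. Member probes with no overlap between treated and untreated arrays numbered 18 of 35 (51.4%, 6 higher and 12 lower) in p53-/- cells, against 64.1% of all probes (27.9% higher and 36.2% lower). In p53+/+ cells they numbered 16 of 35 (45.7%, 9 higher and 7 lower), against 59.4% (28.3% higher and 31% lower).

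**Figure D1:**
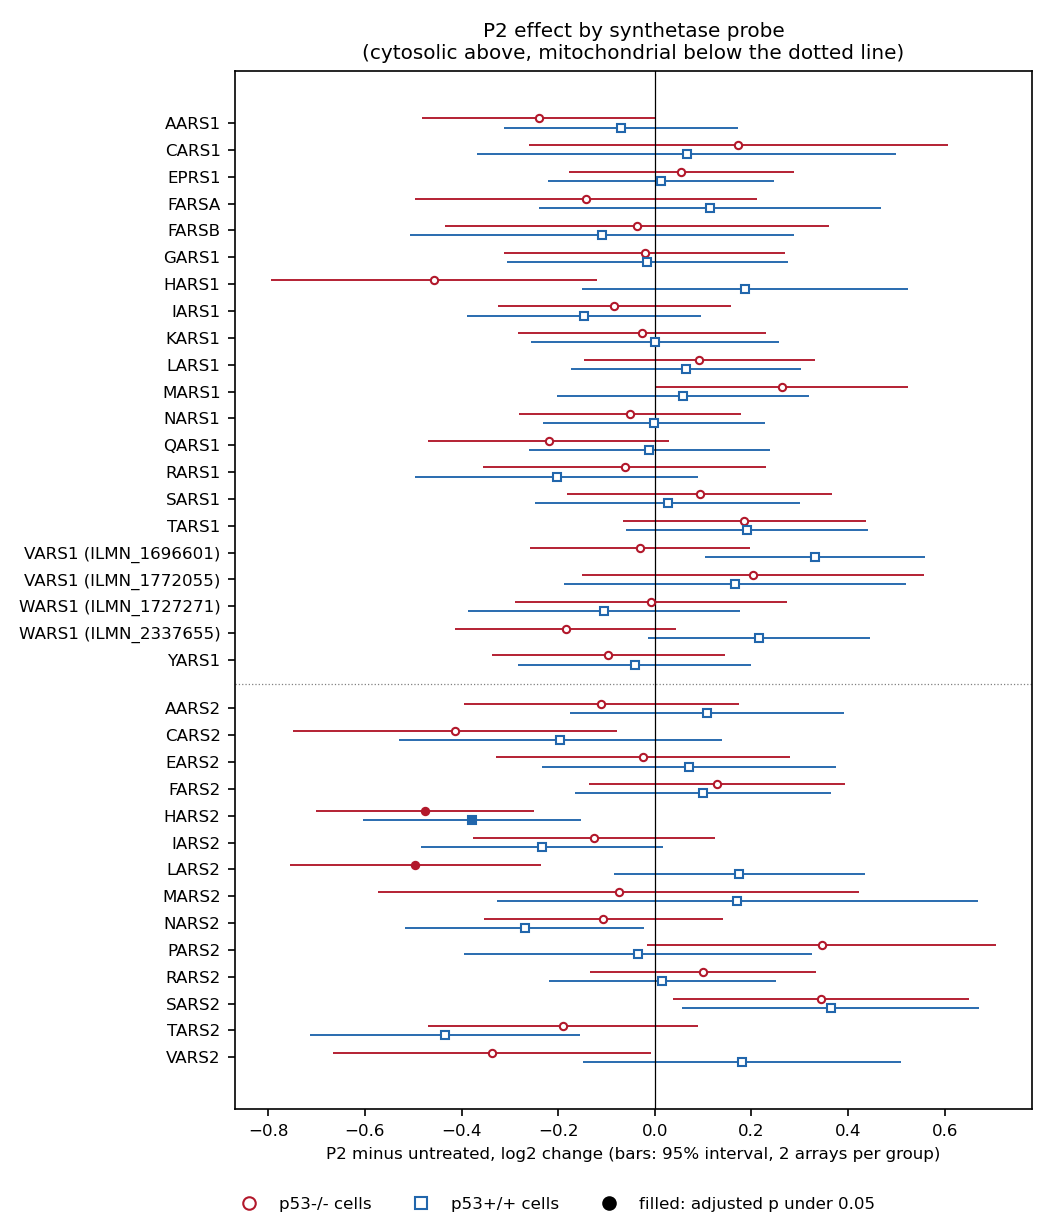
Log2 change with P2 (x axis, P2 minus untreated on the normalized scale) for each of the 35 tested synthetase probes, in p53-/- cells (red circles) and p53+/+ cells (blue squares), with 95% intervals and 2 arrays per group. The 3 filled points, HARS2 in both genotypes and LARS2 in p53-/- cells, are the only ones with an adjusted p under 0.05.

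The mean log2 level of the cytosolic genes minus that of the mitochondrial genes was taken on each array, where only its movement between arrays has meaning. It was 1.93 and 2.05 in untreated p53-/- cells and 2.06 and 2.04 after P2, and the 2 groups overlapped. In p53+/+ cells it was 1.98 and 1.96 untreated and 2.03 and 2.04 after P2, without overlap. The p53+/+ arrays still lay closer together than the untreated p53-/- replicates. Among all single probes, 59.4% had no overlap between treated and untreated p53+/+ arrays. The untreated groups of the 2 genotypes overlapped, since the p53+/+ arrays lay between the p53-/- arrays. Over all 8 arrays the difference ran from 1.93 to 2.06 log2 units.

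**Figure D2:**
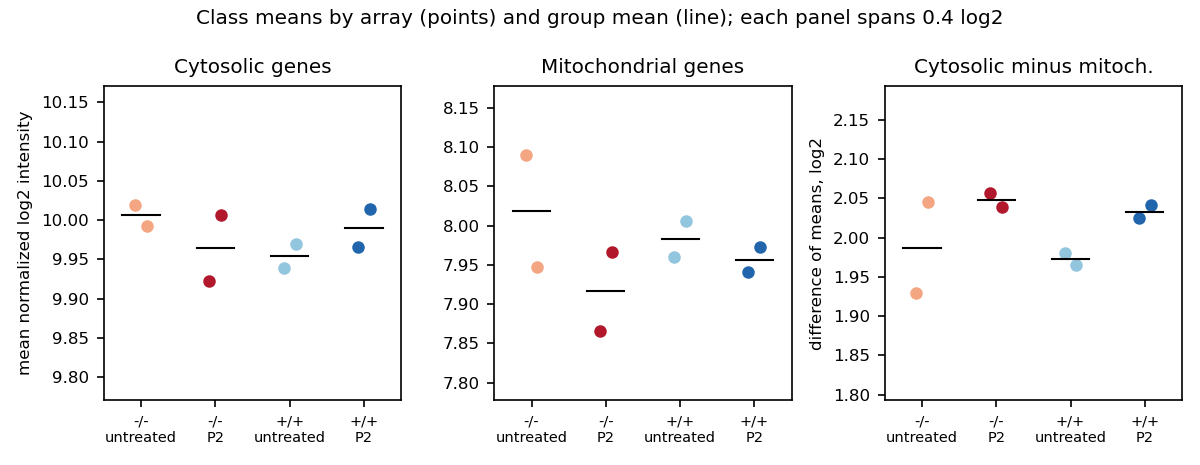
Mean normalized log2 intensity of the 19 cytosolic and 14 measured mitochondrial genes, and the difference of the means, for each array (points) with the group mean (line). The y axes do not start at 0 and each spans 0.4 log2 units. The difference ran from 1.93 to 2.06 over all arrays, and the treated and untreated arrays separate in p53+/+ cells but overlap in p53-/- cells. The p53+/+ arrays differ by less than the untreated p53-/- replicates do (1.93 and 2.05).

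HARS2, which charges mitochondrial tRNA with histidine, fell with P2 in both genotypes. Its level (ILMN_1715113) was 10.45 and 10.45 in untreated p53-/- cells, 9.94 and 10.01 in treated p53-/- cells, 10.18 and 10.22 in untreated p53+/+ cells, and 9.86 and 9.79 in treated p53+/+ cells. All 4 treated arrays were below all 4 untreated arrays. The log2 change was -0.47 ± 0.10 (SE, n = 2 arrays per group) in p53-/- cells, a level 1.39-fold lower (adjusted p = 0.00968 in the limma fit). It was -0.38 ± 0.10 in p53+/+ cells, 1.30-fold lower (adjusted p = 0.0401), and -0.43 averaged over both (adjusted p = 0.00229). The difference of the effects was 0.096, with a 95% interval from -0.22 to 0.42 (adjusted p = 0.794). Without replicate 1 of the treated p53-/- cells the call in p53-/- cells was lost (adjusted p = 0.0656). The call in p53+/+ cells did not hold when each of the 4 p53+/+ arrays was left out in turn (adjusted p from 0.131 to 0.180), without either treated p53-/- array (adjusted p = 0.0595), and with median scaling (adjusted p = 0.0665).

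LARS2, the mitochondrial leucyl enzyme, fell in p53-/- cells. Its level was 7.69 and 7.52 in untreated and 7.04 and 7.17 in treated p53-/- cells, and 7.42 and 7.29 in untreated and 7.49 and 7.57 in treated p53+/+ cells. Treated arrays were both below the untreated ones in p53-/- cells and both above them in p53+/+ cells. The log2 change was -0.50 ± 0.11 (SE, n = 2) in p53-/- cells, 1.41-fold lower (adjusted p = 0.0144). In p53+/+ cells the value was 0.17 ± 0.11 (adjusted p = 0.365). The difference of these effects was 0.67 ± 0.16, with a 95% interval from 0.30 to 1.04, and did not pass the test over all probes (adjusted p = 0.117). The call in p53-/- cells was lost without replicate 1 of the untreated p53-/- cells, the array that stood apart (change -0.41, adjusted p = 0.0775), and without replicate 1 of the treated p53-/- cells (-0.43, adjusted p = 0.0971). Without replicate 2 of the untreated p53-/- cells the difference passed the test (0.76, adjusted p = 0.0354).

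TARS2 and SARS2, the mitochondrial threonyl and seryl enzymes, passed the test when both genotypes were averaged. TARS2 was at 6.54 and 6.65 untreated and 6.37 and 6.44 treated in p53-/- cells, and at 6.45 and 6.54 untreated and 6.21 and 5.92 treated in p53+/+ cells. Treated arrays were lower without overlap in each genotype, and the averaged change was -0.31 ± 0.088 (SE, 4 arrays against 4; adjusted p = 0.0245). Within genotypes the values were -0.19 (adjusted p = 0.294) and -0.43 (adjusted p = 0.052). In p53+/+ cells TARS2 passed the test in 4 of 19 alternatives, and in p53-/- cells in 0 of 19. The averaged call was lost without either treated p53-/- array, either untreated p53+/+ array or replicate 2 of the treated p53+/+ cells (adjusted p from 0.0512 to 0.0843), with median scaling (0.0693) and with cyclic loess (0.0831).

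SARS2 was at 8.56 and 8.16 untreated and 8.71 and 8.70 treated in p53-/- cells, and at 8.52 and 8.43 untreated and 8.83 and 8.85 treated in p53+/+ cells. All 4 treated arrays were above all 4 untreated arrays. The averaged change was 0.35 ± 0.096 (adjusted p = 0.0214), made up of 0.34 in p53-/- and 0.36 in p53+/+ cells, with adjusted p of 0.0936 and 0.119. The averaged call was lost without either treated array of either genotype or without replicate 2 of the untreated p53+/+ cells (adjusted p from 0.057 to 0.0701), and with median scaling (change 0.20, adjusted p = 0.354). Without replicate 1 of the untreated p53-/- cells the change in p53-/- cells was 0.54 and passed the test (adjusted p = 0.0219), as did that in p53+/+ cells (0.36, adjusted p = 0.0451). Leaving out replicate 2 of the untreated p53-/- cells also gave the p53+/+ call (adjusted p = 0.0451).

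HARS1, the neighbour that shares the stretch with HARS2, was looked at after its values were seen. Its level was 9.98 and 10.05 untreated and 9.36 and 9.76 treated in p53-/- cells, and 9.46 and 9.74 untreated and 9.78 and 9.80 treated in p53+/+ cells. Treated arrays were lower in p53-/- cells and higher in p53+/+ cells. The change was -0.46 ± 0.15 in p53-/- cells, where the adjusted p was 0.0521, and 0.19 in p53+/+ cells, where it was 0.465, and the difference of the effects was 0.64 ± 0.21 (adjusted p = 0.194). In p53+/+ cells the HARS2 change passed the test at -0.38 while the HARS1 value was 0.19, a contrast between the 2 genes that was not itself tested. Of the synthetase genes with another gene starting within 1000 bases in the opposite direction, SARS2 lies beside MRPS12, a mitochondrial ribosomal protein gene, whose values were -0.07 and -0.02 and did not pass the test. Outside the HARS1 and HARS2 pair, in which HARS2 was called and HARS1 was not, UBFD1 was the only tested neighbour called with P2. It lies beside EARS2 and changed by 0.36 in p53-/- cells (adjusted p = 0.0437). Among all genes, 1 probe each, 24.9% were called in p53-/- cells, so 1 call among these few neighbours says little.

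**Figure D3:**
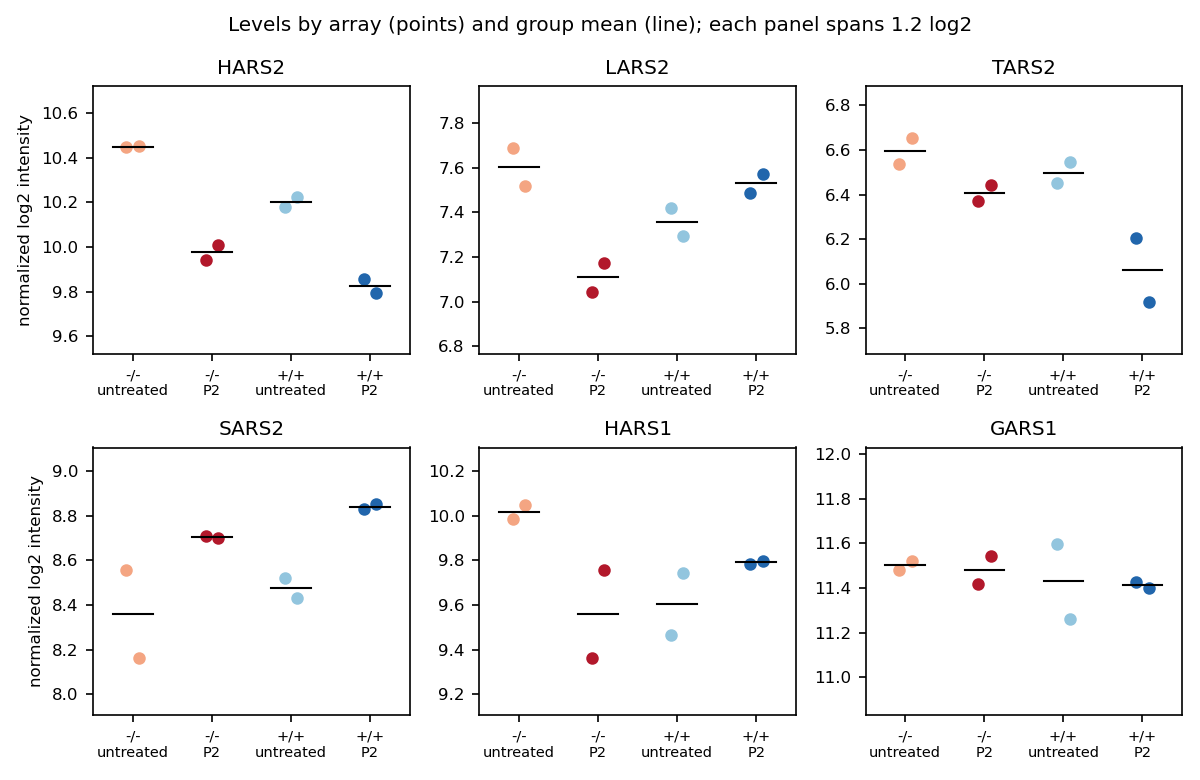
Normalized log2 intensity by array (points) with the group mean (line) for HARS2, LARS2, TARS2, SARS2, HARS1 and GARS1. The y axes do not start at 0 and each spans 1.2 log2 units. HARS2 is lower on all 4 treated arrays than on the untreated ones, SARS2 is higher on all 4, and LARS2 and HARS1 are lower in treated p53-/- and higher in treated p53+/+ cells.

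GARS1 and KARS1, the glycyl and lysyl enzymes, each make the cytosolic and the mitochondrial form from 1 gene. GARS1 was at 11.48 and 11.52 untreated and 11.42 and 11.54 treated in p53-/- cells, and at 11.60 and 11.26 untreated and 11.43 and 11.40 treated in p53+/+ cells. KARS1 was at 9.64 and 9.54 untreated and 9.48 and 9.64 treated in p53-/- cells, and at 9.46 and 9.63 untreated and 9.56 and 9.53 treated in p53+/+ cells. Treated and untreated arrays overlapped for both genes in both genotypes. The GARS1 changes were -0.02 (95% interval -0.31 to 0.27) and -0.02 (-0.31 to 0.27), and the KARS1 changes were -0.03 (-0.28 to 0.23) and 0.00013 (-0.26 to 0.26). The medians of the cytosolic genes without this pair were -0.05 in p53-/- and 0.03 in p53+/+ cells.

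The 7 genes whose promoters held the CARE letters and whose probes were tested (AARS1, CARS1, GARS1, IARS1, MARS1, NARS1 and TARS1) gave 0 calls in either genotype, where 24.9% of all genes, 1 probe each, were called in p53-/- and 12.7% in p53+/+ cells. That share of so few genes is a small number of calls, so the count of 0 says little by itself, as do the counts of the next groups. Their changes ran from -0.24 (AARS1, the alanyl enzyme) to 0.26 (MARS1) in p53-/- cells and from -0.15 (IARS1, the isoleucyl enzyme) to 0.19 (TARS1, the cytosolic threonyl enzyme) in p53+/+ cells. The enzymes of the multisynthetase complex, a cytosolic assembly that holds several synthetases together, gave 0 of 7 calls in each genotype, with changes from -0.22 to 0.26 and from -0.20 to 0.065. By catalytic fold, 1 of 16 class I genes (LARS2) and 1 of 16 class II genes (HARS2) fell in p53-/- cells, and 0 of 16 and 1 of 16 fell in p53+/+ cells. EPRS1, which joins an enzyme of each class in a single protein, was left out of both counts, with values of 0.05 and 0.01.

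VARS1 and WARS1, the valyl and tryptophanyl enzymes, each had 2 tested probes. For VARS1 the brighter probe gave -0.03 in p53-/- and 0.33 in p53+/+ cells (adjusted p = 0.0645), and the dim probe, detected on 6 arrays, gave 0.20 and 0.17. For WARS1 the probes gave -0.01 and -0.18 in p53-/- and -0.11 and 0.22 in p53+/+ cells, so they differed in sign in p53+/+ cells, and 0 of these values passed the test. FARSB, a subunit of the phenylalanyl enzyme, was the dimmest cytosolic case, detected on 5 arrays.

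Differences by genotype among the synthetases did not pass the test. The difference of the P2 effects (p53+/+ minus p53-/-) gave 0 of 35 member calls and 0% of all probes, and at an unadjusted p under 0.05 it gave 5 of 35 (14.3%) against 16.4%. LARS2 had the smallest adjusted p, 0.117. In untreated cells the genotypes gave 0 of 35 calls against 0.0686% of all probes, and 2 of 35 (5.71%) against 19.8% unadjusted. In P2-treated cells they gave 0 of 35 against 0%, and 5 of 35 (14.3%) against 13.8% unadjusted. The largest gene-level values were 0.53 for VARS2, the mitochondrial valyl enzyme, higher in treated p53+/+ cells (adjusted p = 0.200), and -0.41 for HARS1 in untreated cells (adjusted p = 0.175). Genotype arrays did not overlap for 14 of 35 probes (40%) in untreated cells, against 50.2% of all probes, and for 14 of 35 in treated cells, against 47.8%.

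Genes that work around the synthetases were counted with 1 probe per gene, where 24.9% of all genes were called in p53-/- cells (10.4% higher and 14.5% lower) and 12.7% in p53+/+ cells (5.82% higher and 6.85% lower). Several of these counts were lower when replicate 1 of the untreated p53-/- cells was left out, which leaves 1 array in that group. A call can then be lost with little movement of the fitted change. No other array was left out for these lists, so what is particular to replicate 1 was not tested. Without that array 14.2% of all genes were called in p53-/- cells, and the counts of each list without it are given beside the others. Among complex scaffolds and other aminoacylation genes, 3 of 7 fell in p53-/- cells (1 without that array) and 0 of 7 passed the test in p53+/+ cells. Of the 13 genes listed there 7 were tested: DTD1, GATB, GATC, SEPSECS, PSTK, QRSL1 and MTFMT. No scaffold of the complex was among them, so the scaffolds were not measured. QRSL1, a subunit of the mitochondrial enzyme that converts Glu-tRNA to Gln-tRNA, changed by -0.41 in p53-/- cells. DTD1, which removes D-amino acids from tRNA, changed by -0.40 there. Both calls were lost without that array, at changes of -0.37 and -0.30. MTFMT, which formylates the mitochondrial initiator tRNA, was detected on both untreated and on neither of the treated p53-/- arrays, so its level there was at least 1.61-fold lower after P2 (adjusted p = 0.0217).

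Of the mitochondrial translation factors, 2 of 9 rose and 3 of 9 fell in p53-/- cells, but 1 of 9 fell and 0 rose without the array that stood apart. GFM1, the mitochondrial elongation factor G, fell by 0.53 on the log2 scale in p53-/- cells (adjusted p = 0.0116) and by 0.56 in p53+/+ cells (adjusted p = 0.0168). It was the sole call of 9 in p53+/+ cells, and in p53-/- cells its call was lost without that array at a change of -0.44. MTRF1, a mitochondrial release factor, changed by -0.69 in p53-/- cells (adjusted p = 0.00354) and kept its call without that array at -0.61 (adjusted p = 0.0174). MTIF3, an initiation factor, and TSFM, the partner that recycles mitochondrial EF-Tu, changed by 0.48 and -0.39 in p53-/- cells. Both calls were lost without that array, at changes of 0.37 and -0.41. Of the cytosolic elongation and termination factors, 0 of 10 passed the test in either genotype, with medians of 0.05 and 0.06.

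In tRNA maturation and export, 3 of 23 fell and 0 rose in p53-/- cells (2 fell without that array), and 2 of 23 fell in p53+/+ cells. ELAC2, which cuts the 3' end of precursor tRNA, changed by -0.52 in p53-/- cells, a call lost without that array at a change of -0.44. POP7, a subunit of RNase P, changed by -0.41 in p53-/- cells. RPP25, another RNase P subunit, changed by -0.51 and PRORP, the nuclease of the mitochondrial RNase P, by -0.41 in p53+/+ cells. In tRNA modification, 4 of 37 rose and 2 fell in p53-/- cells (2 rose and 0 fell without that array), and 0 rose and 1 fell in p53+/+ cells. DUS3L, a dihydrouridine synthase, changed by 0.71 and PUS3, a pseudouridine synthase, by 0.58 in p53-/- cells. CTU2, which takes part in thiolation of wobble uridine, changed by 1.01 in p53-/- cells, with 6.14 and 7.10 in untreated and 7.78 and 7.48 in treated cells, and its value was 0.53 without the array at 6.14 (adjusted p = 0.0646). ADAT1, a tRNA adenosine deaminase, changed by -0.86 in p53+/+ cells.

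Among amino acid synthesis and transport genes, rises made up most of the calls. In p53-/- cells 5 of 18 rose and 0 fell (2 rose without that array), and in p53+/+ cells 3 of 18 rose and 1 fell. PHGDH, the first enzyme of serine synthesis from glycolysis, was at 10.79 and 10.78 untreated and 11.31 and 11.20 treated in p53-/- cells, and at 10.59 and 10.78 untreated and 11.46 and 11.33 treated in p53+/+ cells. It rose by 0.47 (adjusted p = 0.0174) and by 0.71 (adjusted p = 0.00513). Its call in p53-/- cells was lost without that array, where the change was 0.48. ASNS, asparagine synthetase and a known ATF4 target, was named after its values were seen: it rose by 0.37 in p53-/- cells (adjusted p = 0.0285) and by 0.43 with p53 present (adjusted p = 0.0268), with its call in p53-/- cells lost without that array. ASNS is thus a gene picked from the list, and other genes of the list varied in p53-/- cells. SHMT2 rose by 0.48 there (adjusted p = 0.0120). PSAT1, MTHFD2 and SLC7A5 had values of -0.13, 0.12 and 0.007 there and did not pass the test. PYCR1, of proline synthesis, changed by 0.93 in p53-/- cells and by 0.65 without that array. SLC3A2, the heavy chain of several amino acid transporters, was at 4.42 and 6.87 in untreated and 8.12 and 7.97 in treated p53-/- cells. It was not detected on the array at 4.42, so the fitted change of 2.40 rests on a value not above background, and without that array the change was 1.17 (adjusted p = 0.00393). GOT1, the cytosolic aspartate aminotransferase, changed by -0.49 in p53+/+ cells.

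The ATF4 and integrated stress response regulators split by direction. In p53-/- cells 3 of 17 rose and 3 fell (2 rose and 1 fell without that array), and in p53+/+ cells 1 rose and 1 fell. DDIT4, an inhibitor of mTORC1 signalling, rose by 1.33 in p53-/- cells (adjusted p = 0.0002) and by 1.36 with p53 present (adjusted p = 0.000214), with every treated array at 10.51 or above and every untreated array at 9.55 or below. DDIT3, which encodes the stress factor CHOP, fell by 0.98 (adjusted p = 0.00164) and by 0.84 (adjusted p = 0.0056), with treated arrays from 7.14 to 7.54 and untreated arrays from 8.15 to 8.36. EIF2AK4, the kinase GCN2 that senses uncharged tRNA, changed by 0.74 in p53-/- cells (adjusted p = 0.0051), and its value was 0.38 with p53 present (adjusted p = 0.103). STC2, a secreted glycoprotein known as an ATF4 target, changed by -0.49 in p53-/- cells (adjusted p = 0.0189). It lost its call without that array, where the change was -0.48.

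**Figure D4:**
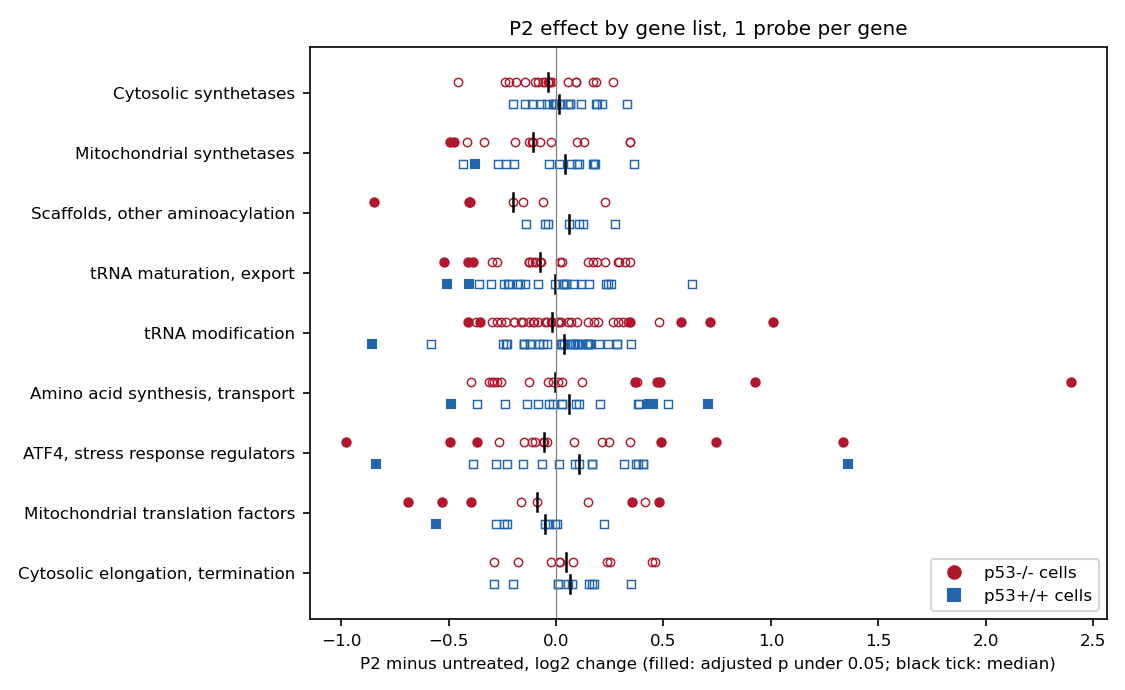
Log2 change with P2 (x axis) of every tested gene, 1 probe per gene, by gene list, in p53-/- cells (red circles) and p53+/+ cells (blue squares); filled symbols have an adjusted p under 0.05 and black ticks mark the list medians. The cytosolic synthetases hold no filled symbol and lie between -0.46 and 0.33. SLC3A2 reaches 2.40 in p53-/- cells, with 1 untreated array not above background, and DDIT4 lies at 1.33 and 1.36. In the list of scaffolds and other aminoacylation genes no scaffold was tested.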

How the data were processed

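Biotin-labelled cRNA was made from total RNA for Illumina arrays, per the labels' protocols. The authors deposited for each probe on each array a non-normalized intensity with its detection p-value, per the file headers, and separately normalized log2 values. The authors' deposited log2 values equalled quantile-normalized log2 intensities (largest difference 5e-09). The submitters' processing notes name GenomeStudio, and further settings are not given in the sources used here. Of 24526 probes, 21834 carried 1 gene symbol, 2692 none and 0 several.

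Groups were taken from the sample titles. From the intensities, background was corrected with normexp on the detection p-values (limma 3.58.1, R 4.3.3, offset 16), then log2 and quantile normalization were applied. Testing covered the 14574 probes with a detection p under 0.05 on 2 or more arrays and left out 9952. A limma fit with 1 mean per group used all 8 arrays (4 residual and 5.15 prior degrees of freedom). Two-sided p-values of each of the 6 contrasts were adjusted separately (Benjamini-Hochberg, all 14574 probes), with a threshold of 0.05. A fold written "at least" compares the detected group's mean with the lowest level of any detected probe on the other group's arrays, or the probe's own level there if higher. The fit was tested on simulated data. Precision is limited by how few arrays there are.

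The members and all gene lists were chosen with earlier results of these data known. Values by array are given for members called in any contrast, for both probes of a gene that disagreed in call (0 cases), and for GARS1 and KARS1. HARS1, called in no contrast, was added after its values were seen. By rule, each other list gives values for up to 4 called genes with the largest change. ASNS and the genes set beside it in the amino acid list were added after their values were seen. Replicate numbers come from the titles, which do not say that a number marks a shared batch. Some items are not reported here.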

Additional observations from a re-analysis of the deposited data

How the results depend on the processing

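The call of HARS2 averaged over both genotypes held in 18 of 18 alternatives (adjusted p from 0.000234 to 0.0122), while its call in p53-/- cells held in 18 of 19, its call in p53+/+ cells in 11 of 19, and that of LARS2 in p53-/- cells in 17 of 19. In p53-/- cells 4 member probes were called, not 2, with detection p under 0.01 on all 8 arrays, and 0 to 3 when 1 array was left out. In p53+/+ cells, against 1 call, there were 2 with no background correction, with an offset of 50, with the authors' values, with all probes tested whatever their brightness, and with moderation along a variance trend, 3 with the strict detection filter and with array weights, 0 with median scaling, and 0 to 3 when 1 array was left out. The averaged count of 3 became 1 with median scaling and 1 to 4 when 1 array was left out, and the count of 0 for the difference of the P2 effects became 0 to 1. The genotype contrasts gave 0 member calls in every alternative run. The median change of the cytosolic genes went from -0.04 to -0.17 (p53-/-) and from 0.01 to -0.15 (p53+/+) with median scaling, and that of the mitochondrial genes in p53+/+ cells from 0.04 to -0.11; that scaling moved the median of all tested probes to -0.12 and -0.11. Leaving out 1 array gave cytosolic medians from -0.0756 to 0.0385 (p53-/-) and from -0.01 to 0.04 (p53+/+), and mitochondrial medians from -0.21 to -0.012 and from 0.01 to 0.07. Among all called probes, 29.2% were higher in p53+/+ cells with median scaling against 47.6%, 33.3% against 46% in the average, and cyclic loess gave 57.7% against 46.5% in p53-/- cells. HARS1 in p53-/- cells, at an adjusted p of 0.0521, passed the test in 8 of 19 alternatives (lowest 0.0202). Same-numbered replicates had correlations of their deviations from -0.19 to 0.20. The negative values all involved the untreated p53-/- cells, and the others were 0.095, 0.18 and 0.20. Whether a number marks a shared batch was not tested. The titles do not say it, so the numbers were not taken to pair samples. With the replicate block, p53+/+ cells gave 0 member calls (HARS2 adjusted p = 0.0557). Without replicate 1 of the untreated p53-/- cells, an alternative chosen after seeing the data for the companion lists, their calls in p53-/- cells went from 3 to 1 (other aminoacylation genes), 6 to 2 (tRNA modification), 5 to 2 (amino acid genes), 6 to 3 (stress regulators) and 5 to 1 (mitochondrial translation factors). Where no value shows otherwise, the cause was not tested.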
